A study of Mus musculus with 8 samples.

Results

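The genes described here carry out DNA replication, the copying of the genome in S phase of the cell cycle. They are a fixed list of 44 mouse genes out of 56748 gene IDs counted in each library. The list was chosen by name and known function, with earlier results of these data known. All 44 were found among the IDs, and all 44 passed the filter on low counts that left 14942 genes for testing, with between 36 and 10027 read counts per member and library. The list holds 10 genes of origin licensing, 6 of origin firing and helicase activation, 6 of the sliding clamp and its loader, 3 of the single-strand binding protein RPA, 6 of primase and the replicative polymerases, 2 of lagging strand maturation, 5 of nucleotide supply, 4 of chromatin assembly and histone mRNA, and 2 E2F transcription factors.

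The samples were 8 libraries of poly-A RNA from bone marrow derived mast cells (BMMCs), which were grown from the bone marrow of 4 C57BL/6 mice aged 6 to 8 weeks in the presence of IL-3 until nearly all cells carried the IgE receptor and c-Kit. In the 4 Mettl3-RNP libraries, whose genotype is labelled Mettl3 KO, the cells had been electroporated with ribonucleoproteins of the Cas9 nuclease and guide RNAs against Mettl3, the enzyme that methylates adenosine at the N6 position of mRNA (m6A). In the 4 Pulsed libraries, labelled Mettl3 WT, the cells had been electroporated with no Cas9 and no guide, so Cas9 itself separates the groups as well as the loss of Mettl3. The Mettl3-RNP cells were a bulk population in which some cells kept an intact gene, and all cells were unstimulated. The study followed proliferation by the uptake of BrdU, a label of newly made DNA. It reported less uptake after Mettl3 deletion in cells grown with IL-3 alone. The comparison here is of bulk RNA, and asks whether the transcripts of the replication machinery differed between the groups.

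A replication origin is prepared in G1 phase, when the origin recognition complex (ORC), Cdc6 and Cdt1 load the ring-shaped helicase Mcm2-7 onto DNA. The helicase is switched on in S phase by Mcm10, Cdc45 and the GINS complex, polymerases then extend primers made by primase, and the fragments of the lagging strand are trimmed by Fen1 and sealed by Lig1. Many of these genes are transcribed in late G1 under E2F factors, so in a growing culture their mRNA levels follow the share of cells that is cycling.

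The promoter sequences of several licensing genes hold E2F words, a feature found for a minority of the members searched. RefSeq promoters, each running from 250 bases before to 50 bases after a transcript start (build GRCm38.p6), were at hand for 37 of the 44 members. They were searched on both strands for the E2F words TTTCCCGC, TTTCGCGC, TTTGCCGC and TTTGGCGC and for the box CCAAT. An E2F word was found for 13 of 37 members (35.1%), against 2.61% of all 27025 genes in the table, and a CCAAT box for 24 members (64.9%), against 41.1%. The stretches that follow are those of licensing genes and of Pola1, the catalytic subunit of DNA polymerase alpha, with a word upstream of the start. They are written 5′ to 3′ on the strand of the gene, with E2F words in capitals.
Orc1, GRCm38.p6 chr4:108579407-108579453, plus strand: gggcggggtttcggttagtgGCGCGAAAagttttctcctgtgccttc
Cdc6, GRCm38.p6 chr11:98907993-98908040, plus strand: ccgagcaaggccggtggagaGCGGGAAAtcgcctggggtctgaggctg
Mcm5, GRCm38.p6 chr8:75109336-75109387, plus strand: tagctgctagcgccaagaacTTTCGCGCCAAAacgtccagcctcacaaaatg
Mcm6, GRCm38.p6 chr1:128359725-128359835, minus strand: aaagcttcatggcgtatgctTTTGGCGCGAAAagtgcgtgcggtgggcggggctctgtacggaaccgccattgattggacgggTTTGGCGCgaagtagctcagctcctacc
Mcm7, GRCm38.p6 chr5:138172021-138172068, minus strand: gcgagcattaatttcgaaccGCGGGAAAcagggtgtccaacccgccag
Pola1, GRCm38.p6 chrX:93632266-93632313, minus strand: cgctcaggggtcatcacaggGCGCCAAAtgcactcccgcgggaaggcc

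In Mcm5 and in the upstream site of Mcm6, a pair of words on opposite strands overlapped by 4 bases, so that one palindrome-like run carries both. The other members with a word in the searched window were Cdt1, Gins3, Lig1, Mcm3, Pold1, Rfc3 and Uhrf1. Of these, Gins3, Rfc3 and Uhrf1 also had a word upstream of the start, which is not printed here. The 13 members with a word had log2 fold changes between the groups of -0.26 to 0.23 (median -0.0043) and the 24 without one -0.29 to 0.77 (median -0.0502). Tk1, Fen1, Chaf1b and E2f8, the 4 members with the highest values, had no word in the window, and the difference between the sets was not tested. A match describes letters in a window, and no binding was measured.

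Library totals ranged from 32643260 to 45324826 counts. Levels are given as CPM, the counts per 1000000 counts of the library, with library sizes scaled by the trimmed mean of M-values (TMM). Mettl3, the targeted gene, stood at 12.3, 9.18, 4.88 and 9.21 CPM in Mettl3-RNP libraries 1 to 4 and at 25.9, 24.5, 11.2 and 26.5 CPM in Pulsed libraries 1 to 4, a log2 fold change of -1.30 (SE 0.11, edgeR adjusted p = 0.00543). Without the replicate number as a block, no gene passed an adjusted p of 0.05, Mettl3 included. The 9 mast cell markers summed to 38460, 53560, 50235 and 54187 CPM in Mettl3-RNP libraries 1 to 4 and to 43409, 61098, 54607 and 60323 CPM in their Pulsed partners, lower in 4 of 4 pairs. Of these markers only Cpa3, a granule protease, passed the test, with a log2 fold change of -0.37 (adjusted p = 0.0328). Without Cpa3 the other 8 summed to 21803, 28047, 27451 and 26054 CPM in Mettl3-RNP and 22993, 25354, 26226 and 23164 CPM in Pulsed, lower in pair 1 and higher in pairs 2 to 4. The median log2 fold change of the 9 was 0.08, and Mitf, a mast cell transcription factor, was higher in 4 of 4 pairs (0.30, adjusted p = 0.0709). The 6 macrophage markers summed to 4.93 to 29.1 CPM in the Mettl3-RNP libraries and 5.50 to 9.87 in the Pulsed libraries, with Adgre1 lower (-1.13, adjusted p = 0.0435) and Cd68 at 3.71 to 28.3 CPM against 3.16 to 6.56 CPM (1.63, adjusted p = 0.142). The 6 neutrophil markers summed to at most 0.373 CPM, with 4 of them at 0 in every library, the 6 erythroid markers to at most 4.78 CPM, and the 4 basophil markers, mostly Ifitm1 and Cd200r3, to 1763 to 2386 CPM in Mettl3-RNP and 2179 to 3274 CPM in Pulsed. The basophil sum was lower in 4 of 4 pairs, and Ifitm1 passed the test (-0.60, adjusted p = 0.0471), while Cd200r3 was higher in 4 of 4 pairs (0.25, adjusted p = 0.151). The remaining basophil markers had low levels, Mcpt8 at 0.511 to 4.03 CPM and Prss34 at 0.135 to 1.74 CPM over all libraries. Both were lower in 4 of 4 pairs (adjusted p = 0.267 and 0.299). The part of these cell types in the results was not tested.

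Levels of different members can be compared only per transcript length, as TPM, the share of transcripts per 1000000. In the Pulsed libraries these ranged from 3.87 TPM for Orc1 to 236 ± 62.6 TPM (SD, n = 4) for Pcna, the sliding clamp that holds polymerases on DNA. Within a complex the levels were uneven. Of the 6 subunits of the Mcm2-7 ring, which are present once each per ring, Mcm6 had the highest level (114 ± 33.6 TPM) and Mcm5 the lowest (35.1 ± 18.1 TPM), and Mcm7, Mcm2, Mcm3 and Mcm4 lay between them at 59.0, 56.4, 47.4 and 37.1 TPM. Ranked by level, each subunit overlapped the next within 1 SD, while Mcm6 and Mcm5 did not overlap. Among the 4 GINS subunits, Gins4 stood at 44.5 ± 11.0 TPM and Gins1, Gins2 and Gins3 at 9.61, 5.98 and 5.84 TPM, and in the clamp loader Rfc2 stood at 110 ± 26.8 TPM and Rfc4 at 7.14 ± 2.66 TPM. These levels rest on the length of 1 canonical transcript per gene.

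**Figure D1:**
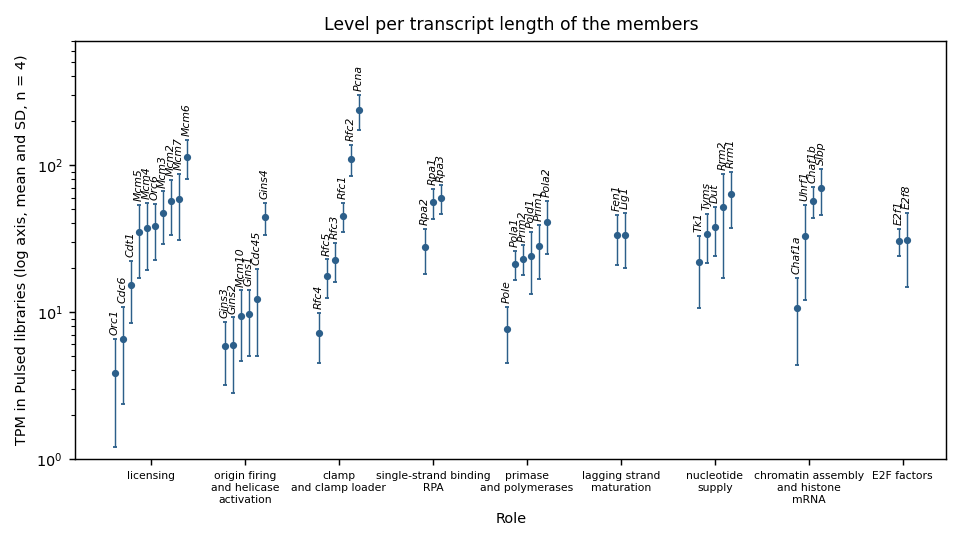
Level per transcript length of the 44 members in the Pulsed libraries, by role, in TPM on a log axis. Points are means and bars SDs of 4 libraries. Pcna has the highest level at 236 TPM and Orc1 the lowest at 3.87 TPM.

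Between the groups the replication genes stood nearly level. No member passed an adjusted p of 0.05 in edgeR's quasi-likelihood test in either direction, where 2.35% of all tested genes were higher and 1.39% lower in Mettl3-RNP, and none passed that limit together with a fold of 1.5, where 2.06% of all genes did. At an unadjusted p under 0.05, 4 members were higher (Tk1, Fen1, Chaf1b and E2f8; 11.8% of all genes) and 1 was lower (Pola1; 10.7% of all genes). DESeq2 called 3 members higher (Chaf1b, Fen1 and Tk1), limma-voom 1 (Tk1), and neither called any lower. Over all genes DESeq2 called 5.94% higher and 3.76% lower, and limma-voom 2.67% higher and 1.63% lower. The summed level of the 44 members was 2206 ± 555 CPM in Mettl3-RNP and 2199 ± 640 CPM in Pulsed (SD, n = 4 each). In these bulk samples fewer cells of a type and less RNA per cell cannot be told apart.

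The size of the differences was bounded by the data. Fitted log2 fold changes, given throughout as Mettl3-RNP minus Pulsed, ran from -0.29 (Rfc4) to 0.77 (Tk1), with a median of -0.0156 against -0.0013 over all tested genes. Of the 44 members, 24 lay within 0.1 and 35 within 0.2 of no change on the log2 scale. The median SE was 0.11, and the 95% interval stayed inside a 1.5-fold change in either direction for 39 members. In all 4 pairs of libraries with the same replicate number, 6 members were higher (15.7% of all genes) and 5 lower (16% of all genes), and the 2 groups overlapped for all 44 members (they did not for 3.23% of all genes).

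**Figure D2:**
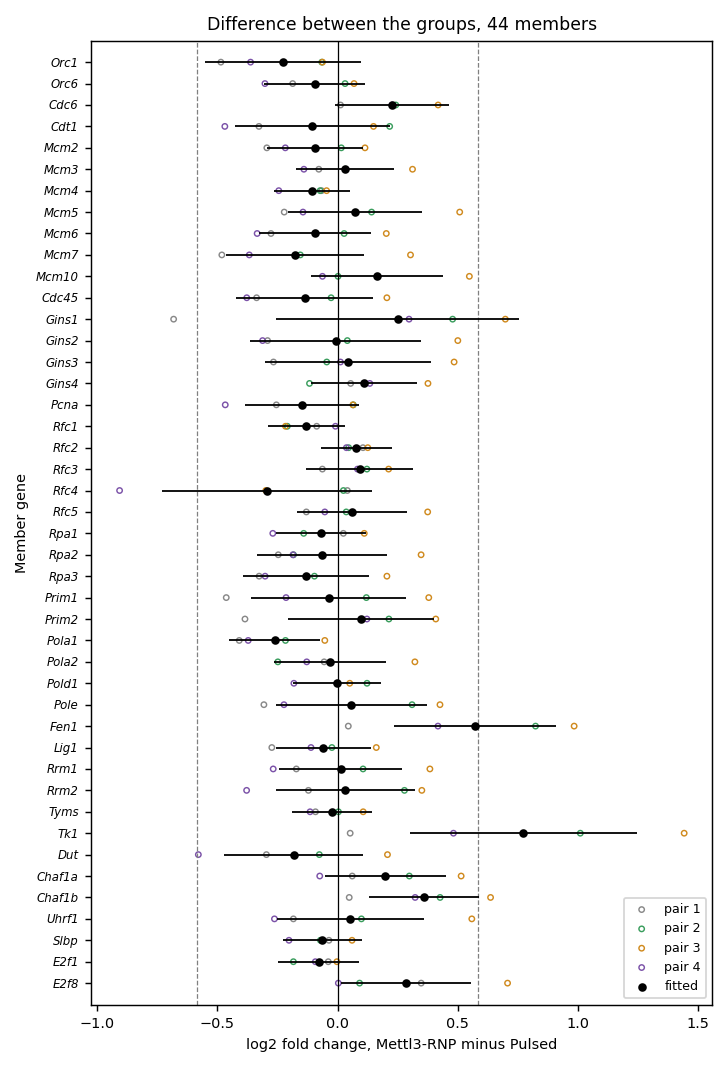
Log2 fold change of each member, Mettl3-RNP minus Pulsed. Filled points are fitted values with 95% intervals, open points the differences of log2 CPM in each of the 4 pairs, and dashed lines a 1.5-fold change. Most intervals hold 0, Tk1 lies farthest to the right at 0.77, and open points of pair 3 lie to the right of those of the other pairs for most members.

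The licensing genes load the helicase at origins. Their fitted log2 fold changes ran from -0.23 to 0.23 with a median of -0.0953, and the smallest adjusted p was 0.241. Cdc6, the ATPase that loads the Mcm ring together with ORC and Cdt1, had the largest difference in either direction. It stood at 8.40, 10.2, 12.7 and 28.0 CPM in Mettl3-RNP libraries 1 to 4 and at 8.33, 8.64, 9.47 and 23.9 CPM in Pulsed libraries 1 to 4. Library 4 was far above the rest in both groups, and each Mettl3-RNP library was above its Pulsed partner by an amount smaller than the range within a group (log2 fold change 0.23, SE 0.10, adjusted p = 0.241). Mcm6, the helicase subunit with the highest level, stood at 86.3, 124, 171 and 155 CPM in Mettl3-RNP and 105, 122, 148 and 196 CPM in Pulsed. Mettl3-RNP was lower in pairs 1 and 4 and higher in pairs 2 and 3, and the fitted difference was -0.10 (SE 0.10, adjusted p = 0.639). Orc1, the large ATPase subunit of ORC, lay below its partner in each pair (fitted value -0.23, SE 0.14, adjusted p = 0.395), as did Mcm4 (-0.11, SE 0.07, adjusted p = 0.404). The remaining helicase subunits lay between -0.18 (Mcm7) and 0.07 (Mcm5).

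The genes of origin firing turn the loaded ring into a moving helicase. All 6 had adjusted p-values of at least 0.472. Gins1, a GINS subunit, had the largest difference of the 6 and the lowest counts, from 52 to 311 per library. It stood at 1.40, 6.10, 6.89 and 8.86 CPM in Mettl3-RNP and at 2.28, 4.36, 4.23 and 7.20 CPM in Pulsed, so that Mettl3-RNP was lower in pair 1 and higher in the other 3 pairs (log2 fold change 0.25, SE 0.22, adjusted p = 0.561). This value was 0.46 without replicate 1, 0.16 without replicate 2 and 0.09 without replicate 3. Its 95% interval, from -0.26 to 0.76, was the widest of the list. Gins4, which had the highest level of this group, stood at 28.7, 24.4, 26.9 and 35.7 CPM in Mettl3-RNP and 27.7, 26.5, 20.7 and 32.6 CPM in Pulsed (log2 fold change 0.11, SE 0.10, adjusted p = 0.555). The groups overlapped over most of their range. Cdc45, a part of the active helicase, and Mcm10, which is needed to start it, had fitted values of -0.14 and 0.16.

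Pcna is loaded onto DNA by the replication factor C complex of Rfc1 to Rfc5. It stood at 80.9, 140, 227 and 121 CPM in Mettl3-RNP libraries 1 to 4 and at 96.5, 134, 217 and 167 CPM in Pulsed libraries 1 to 4, a log2 fold change of -0.15 (SE 0.10, adjusted p = 0.452) that was -0.03 without replicate 4 and -0.23 without replicate 2. In both groups library 3 was the highest and library 1 the lowest, and the distance between them exceeded any distance between partners. Rfc4, a small clamp loader subunit, had a fitted value of -0.29 (SE 0.19, adjusted p = 0.414), the lowest of the list with all libraries in the fit, and of -0.07 without replicate 4. Its levels were 3.07, 5.05, 4.21 and 3.96 CPM in Mettl3-RNP and 2.98, 4.96, 5.20 and 7.48 CPM in Pulsed, and log2 CPM differed by 0.04, 0.02, -0.30 and -0.91 in pairs 1 to 4, so that Mettl3-RNP was lower in pairs 3 and 4 alone. Rfc2 was higher in 4 of 4 pairs by a fitted 0.08 (SE 0.06, adjusted p = 0.529), and Rfc1, the large subunit, was lower in 4 of 4 pairs by a fitted -0.13 (SE 0.07, adjusted p = 0.318).

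RPA coats the single strands that the helicase exposes. Its 3 subunits had fitted values between -0.13 and -0.07 and adjusted p-values of at least 0.556. Rpa3, the smallest subunit, stood at 12.3, 16.7, 15.5 and 16.2 CPM in Mettl3-RNP and at 15.5, 17.9, 13.4 and 19.97 CPM in Pulsed (log2 fold change -0.13, SE 0.11). Mettl3-RNP was lower in 3 pairs and higher in pair 3.

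Among primase and the polymerases, Pola1 was the member with the clearest lower value. It stood at 29.2, 35.6, 50.4 and 47.7 CPM in Mettl3-RNP libraries 1 to 4 and at 38.8, 41.3, 52.3 and 61.8 CPM in Pulsed libraries 1 to 4. Each Mettl3-RNP library was below its partner, by 0.053 to 0.409 on the log2 scale, while the groups overlapped. The log2 fold change was -0.26 (SE 0.08, 95% interval -0.45 to -0.07), with an adjusted p of 0.112. Over the alternative analyses the adjusted p of Pola1 ranged from 0.0771 to 0.999. Pola2, the regulatory subunit bound to Pola1, stood at 40.5, 34.3, 29.9 and 54.0 CPM in Mettl3-RNP and 42.1, 40.8, 23.9 and 59.1 CPM in Pulsed (log2 fold change -0.03, SE 0.10, adjusted p = 0.890). The sign of this value for Pola2 turned when libraries were scaled by total counts alone (0.001). Prim1 and Prim2, the primase subunits, and Pold1 and Pole, the catalytic subunits of the polymerases that copy the bulk of the lagging and leading strands, had fitted values between -0.04 and 0.10, of which those of Prim1 and Pold1 turned sign under an alternative analysis of all libraries.

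The lagging strand genes had unlike fitted values, and the difference between them was not tested. Fen1, the nuclease that cuts the flap off each fragment, stood at 26.8, 56.7, 66.9 and 73.7 CPM in Mettl3-RNP libraries 1 to 4 and at 26.0, 32.0, 33.8 and 55.2 CPM in Pulsed libraries 1 to 4. Partners were nearly equal in pair 1 and clearly apart in the other 3 pairs. The log2 fold change was 0.57 (SE 0.15, a 1.49-fold difference, 95% interval 0.24 to 0.91), with the smallest adjusted p of the list, 0.0704. Lig1, the ligase that seals the trimmed nick, stood at 21.2, 43.1, 56.8 and 65.6 CPM in Mettl3-RNP and 25.7, 43.8, 50.8 and 70.9 CPM in Pulsed (log2 fold change -0.06, SE 0.09, adjusted p = 0.739). Here the groups overlapped almost fully.

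Of the nucleotide supply genes, Tk1 stood apart. Thymidine kinase 1 salvages thymidine, and its mRNA and protein are known as marks of S phase. Tk1 stood at 6.24, 27.9, 31.6 and 29.9 CPM in Mettl3-RNP libraries 1 to 4 and at 6.02, 13.8, 11.6 and 21.4 CPM in Pulsed libraries 1 to 4. Library 1 was the lowest of its group in both groups and hardly differed between them, whereas in pairs 2 to 4 every Mettl3-RNP value was above every Pulsed value. The log2 fold change was 0.77 (SE 0.20, a 1.71-fold difference, 95% interval 0.30 to 1.25), with an adjusted p of 0.0765. Rrm1, the large subunit of ribonucleotide reductase, stood at 58.1, 125, 184 and 157 CPM in Mettl3-RNP and at 65.4, 116, 141 and 189 CPM in Pulsed (log2 fold change 0.01, SE 0.11, adjusted p = 0.960). Rrm2, its small subunit, Tyms, thymidylate synthase, and Dut, which removes dUTP, had fitted values of 0.03, -0.02 and -0.18, and the first 2 of these turned sign under an alternative analysis of all libraries.

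The values of Tk1 and Fen1 depended on single pairs. Without replicate 1, where partners were nearly equal, Tk1 had a log2 fold change of 0.94 (adjusted p = 0.0479) and Fen1 one of 0.71 (adjusted p = 0.0446). Without replicate 3 the values were 0.54 (adjusted p = 0.134) for Tk1 and 0.43 (adjusted p = 0.139) for Fen1. Without replicate 4, Tk1 had an adjusted p of 0.0448 and Fen1 one of 0.0611, and without replicate 2 they had 0.270 and 0.257. Both genes have exons that overlap 2 genes on the opposite strand, and the strand setting of the counting is not given in the sources used here.

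Chaf1a and Chaf1b are the large and middle subunits of chromatin assembly factor 1, which places histones on new DNA. Chaf1b stood at 45.7, 53.3, 66.2 and 74.3 CPM in Mettl3-RNP libraries 1 to 4 and at 44.2, 39.6, 42.5 and 59.4 CPM in Pulsed libraries 1 to 4. It was higher in 4 of 4 pairs, least so in pair 1, and only Pulsed library 4 lay above the 2 lowest Mettl3-RNP libraries. The log2 fold change was 0.36 (SE 0.10, 95% interval 0.13 to 0.59, adjusted p = 0.0827), and for Chaf1a it was 0.20 (SE 0.11, adjusted p = 0.329). Slbp, which binds the stem-loop of histone mRNAs, stood at 53.8, 46.1, 44.4 and 69.1 CPM in Mettl3-RNP and at 55.2, 48.5, 42.5 and 79.6 CPM in Pulsed (log2 fold change -0.06, SE 0.07, adjusted p = 0.661). Uhrf1, which brings the maintenance DNA methyltransferase to replicated DNA, had a fitted value of 0.05 (SE 0.13).

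E2f1 is an activator of S phase genes and E2f8 a repressor of the same family. E2f8 stood at 38.6, 42.8, 64.5 and 83.0 CPM in Mettl3-RNP and at 30.3, 40.2, 39.5 and 82.8 CPM in Pulsed. It was higher in 4 of 4 pairs, by 0.71 on the log2 scale in pair 3 and by 0.003 in pair 4, with a fitted value of 0.29 (SE 0.12, adjusted p = 0.202) that was 0.14 without replicate 3 and 0.39 without replicate 4. E2f1 lay slightly below its partner in every pair (fitted value -0.08, SE 0.07, adjusted p = 0.579).

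**Figure D3:**
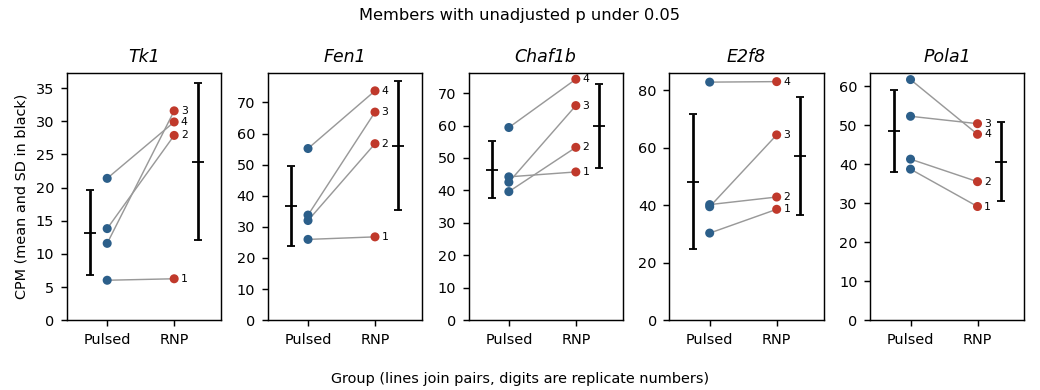
CPM of the 5 members with an unadjusted p under 0.05, in Pulsed (blue) and Mettl3-RNP (red) libraries, with lines joining libraries of the same replicate number and black bars for mean and SD (n = 4). The lines of Tk1 and Fen1 are steep in pairs 2 and 3 and nearly flat in pair 1, and all 4 lines of Pola1 slope down.

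Within a pair most replication genes leaned to the same side, and the side differed from pair to pair. The median difference over the 44 members was -0.15, 0.03, 0.31 and -0.18 on the log2 scale in pairs 1 to 4, whereas the medians over all tested genes were -0.02, 0.00, -0.03 and 0.02. In pair 1 only 11 members were higher in Mettl3-RNP, in pair 2 there were 28, in pair 3 there were 38 and in pair 4 there were 11, out of 44 each time, and over all tested genes 46.7% to 52% were higher. The summed level of the members was 0.936, 1.03, 1.19 and 0.894 times that of the Pulsed partner in pairs 1 to 4. The SD of the 4 pair medians, 0.23, was larger than the distance of their centre from 0. Without replicate 3 the median of the members was -0.11 against -0.0016 over all genes, and 7 of 44 members had an unadjusted p under 0.05, where 22.1% of all genes did, with none past an adjusted p of 0.05.

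**Figure D4:**
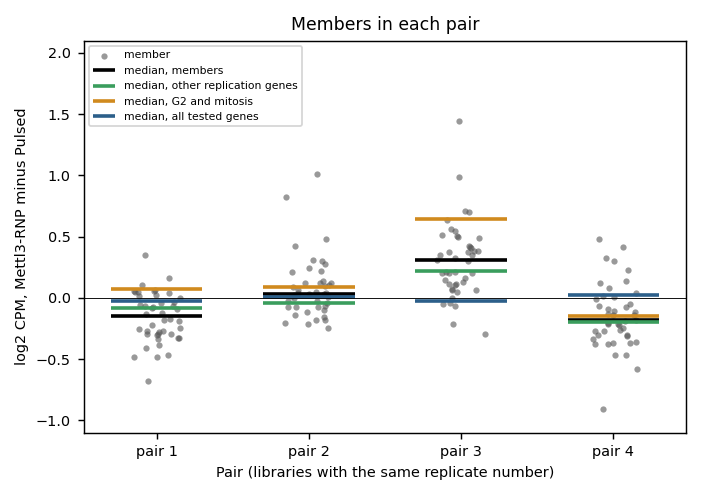
Difference of log2 CPM, Mettl3-RNP minus Pulsed, in each pair. Each point is a member, and bars are medians over the 44 members, the 43 other replication genes, the 20 G2 and mitosis genes and all tested genes. The members lie mostly above 0 in pair 3 (median 0.31) and mostly below 0 in pairs 1 and 4, while the median of all genes stays near 0.

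The replicate number separated these genes far more than the group did. With the group held in the fit, 41 of 44 members differed between replicate numbers at an adjusted p of 0.05 (edgeR), that is 93.2% of the list against 53.9% of all tested genes. The exceptions were Rfc4, Rpa1 and Rpa3. Across the 4 Pulsed libraries the highest level of a member was a median of 2.47 times its lowest, and across the Mettl3-RNP libraries 2.66 times. For the 11985 genes whose average reached 1 CPM, the Pulsed value was 1.75 times. Orc1 had the widest range, from 1.38 to 11.3 CPM in Pulsed (8.19-fold), and Rfc1 the narrowest, 1.39-fold.

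The lowest library was shared by most members and by both groups, and the highest library by fewer. Library 1 was the lowest for 33 members in Pulsed and 36 in Mettl3-RNP, and for 33 in both. Library 4 was the highest for 41 members in Pulsed and for 26 in Mettl3-RNP, where library 3 was the highest for 16. The summed levels rose from library 1 to library 4: 1617, 1965, 2107 and 3109 CPM in Pulsed and 1514, 2032, 2502 and 2778 CPM in Mettl3-RNP. Not every member followed this order: Mcm7 stood at 64.6 CPM in Pulsed library 2 and 56.9 CPM in Pulsed library 3. The members took 0.159% to 0.323% of all counts of a library. Without replicate 1, 28 members still differed between the remaining numbers, against 34.3% of all genes, and without replicate 3, 41 did, against 27.2%. Immediate early genes, a mark of recent stimulation, summed to 20255 and 17086 CPM in the Mettl3-RNP and Pulsed libraries 3 and to between 133 and 4832 CPM in the others. Their part in the difference of pair 3 was not tested.

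**Figure D5:**
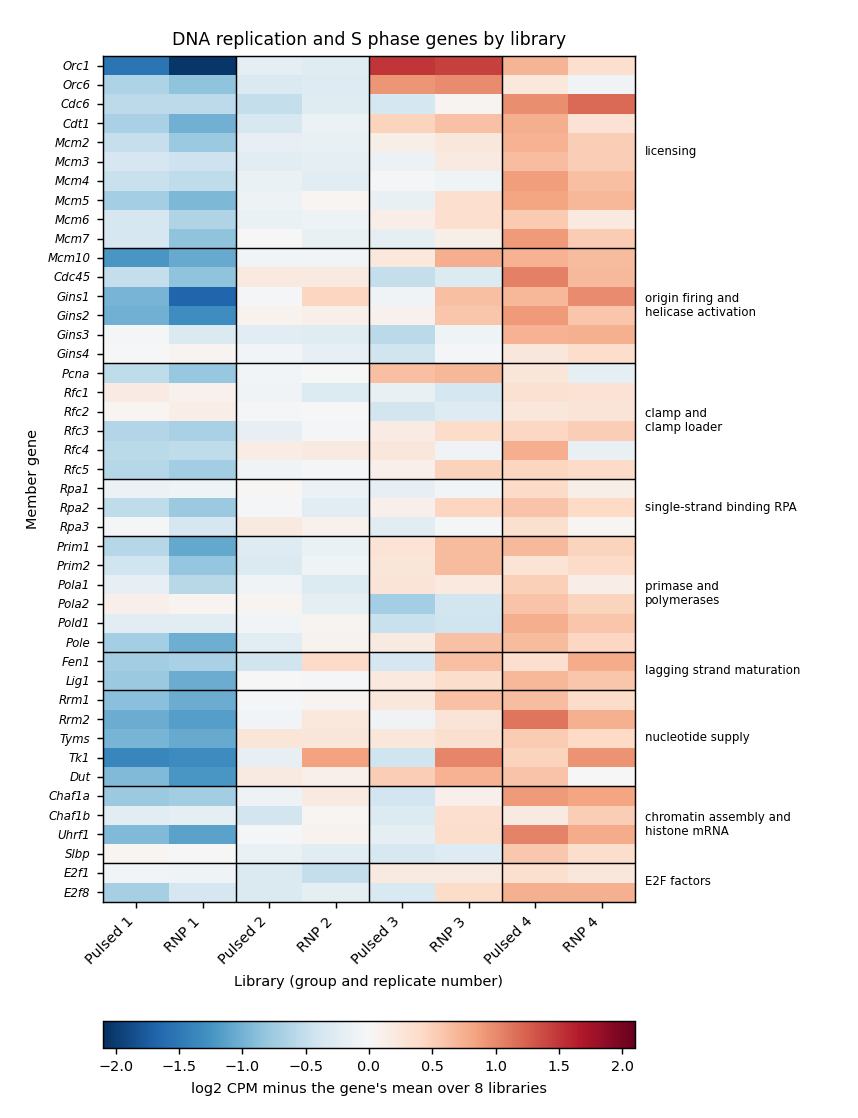
Heatmap of the 44 members in the 8 libraries, as log2 CPM minus the mean of each gene, with partners of a pair side by side and roles set apart by lines. Libraries 1 of both groups are blue and libraries 4 of both groups red for most members, and partners of a pair have like colours for most members.

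A further 43 replication genes, which hold the remaining ORC and polymerase subunits, firing factors, fork accessory proteins, nucleotide enzymes and histone chaperones, gave a like picture. Only Dbf4, the activating subunit of the Cdc7 kinase that fires origins, passed the test. Over all genes 2.35% passed as higher and 1.39% as lower. It rose from 28.7, 36.3, 52.2 and 44.4 CPM in Pulsed libraries 1 to 4 to 37.9, 52.4, 83.7 and 51.8 CPM in their Mettl3-RNP partners (log2 fold change 0.46, SE 0.09, adjusted p = 0.0341). Dbf4 was higher in 4 of 4 pairs, although it did not pass when replicate 1, 2 or 3 was left out. The largest difference in the other direction was that of Samhd1, which breaks down deoxynucleotides (-0.39, SE 0.10, adjusted p = 0.0775). At an unadjusted p under 0.05, 5 of the 43 were higher (11.8% of all genes) and 4 lower (10.7% of all genes). Their median was -0.04, and their pair medians were -0.08, -0.04, 0.22 and -0.20. Of the 43, 36 differed between replicate numbers (53.9% of all genes).

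Of 16 genes of the replication checkpoint and fork repair none passed in either direction, with 3 higher (11.8% of all genes) and 0 lower (10.7% of all genes) at an unadjusted p under 0.05. Brca1, which protects and repairs stalled forks, had the largest difference (0.36, SE 0.12, adjusted p = 0.126), and Chek1, the checkpoint kinase, the lowest value (-0.15, SE 0.20, adjusted p = 0.717). Of 16 further genes of the E2F, DP, RB and MuvB families, 1 passed as higher (2.35% of all genes) and 0 as lower (1.39% of all genes). At an unadjusted p under 0.05, 1 was higher (11.8% of all genes) and 3 were lower (10.7% of all genes). E2f2, an activator E2F, rose from 2.76, 7.18, 7.88 and 10.3 CPM in Pulsed libraries 1 to 4 to 3.74, 11.4, 12.1 and 13.9 CPM in their partners (log2 fold change 0.54, SE 0.11, adjusted p = 0.0398), and it did not pass when any 1 replicate number was left out. The 3 lower ones were E2f5 (-0.74, SE 0.27, adjusted p = 0.161) and the pocket proteins Rb1 (-0.24, SE 0.08, adjusted p = 0.124) and Rbl2 (-0.28, SE 0.09, adjusted p = 0.134), which restrain E2F factors.

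G2 and mitosis follow S phase, and 20 genes of these phases were set beside the replication genes. None of the 20 passed in either direction, 5 were higher (11.8% of all genes) and 0 lower (10.7% of all genes) at an unadjusted p under 0.05, and their median log2 fold change was 0.14. Mki67, the proliferation antigen, had the largest difference (0.54, SE 0.13, adjusted p = 0.0577), and Nusap1, a spindle protein, the lowest value (-0.27, SE 0.12, adjusted p = 0.233). Their pair medians were 0.07, 0.09, 0.65 and -0.15, so pair 3 was the highest and pair 4 the lowest as for the replication genes. All 20 differed between replicate numbers (53.9% of all genes). Their summed level was 664 and 736 CPM in the Pulsed and Mettl3-RNP libraries 1 and between 1174 and 2342 CPM in the others. The difference between the mitotic and the replication genes was not tested.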

How the data were processed

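Poly-A RNA-seq libraries were prepared by the authors with the Tecan Revelo mRNA kit, aligned with HISAT2 2.2.1 to GRCm39 and counted per Ensembl gene with featureCounts 2.0.1. Quality was checked with FastQC 0.11.9. The deposited values are raw read counts, 1 table per library. A batch correction is described in the methods, without saying what the batch was, and the counts show no such correction. Strand and multimapping settings are not given in the sources used here, so members overlapping a gene on the opposite strand (22 of 44) or having pseudogene copies carry that uncertainty.

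IDs were named with GENCODE M39 (GRCm39; 56017 of 56748, 98.7%), and unnamed IDs held at most 0.113% of a library's counts. Counts of all genes were fitted with edgeR 4.0.16 (R 4.3.3; filterByExpr, TMM, glmQLFit and glmQLFTest, replicate number and group) with Benjamini-Hochberg adjustment over 14942 genes. Differences between replicate numbers were tested by the F test of their coefficients. Calls used an adjusted p of at most 0.05, and the fold limit was 1.5. Log2 CPM used a prior count of 2, and TPM the GENCODE canonical transcript length. Intervals come from the fit, and PCR copies of a molecule could not be told from separate molecules. The scripts were tested on simulated data. Alternatives were DESeq2 1.42.0, limma-voom (limma 3.58.1), other scalings and filters, no replicate block, and leaving out each replicate number.

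The replicate number was kept as a block since the cultures came, by the series text, from 4 mice. Deviations from the group means correlated at 0.489 to 0.879 between libraries of the same number over the 11985 genes of at least 1 CPM, against at most 0.183 between different numbers, and at 0.715 to 0.917 over the members. Over all 14942 tested genes the pairing was less clear: pair 2 correlated at only 0.0738, and different numbers reached 0.249 (Mettl3-RNP 2 with Pulsed 3). The labels do not state that a number is a mouse, and p-values measure only the spread between these libraries. Libraries of 1 group differed by more than sampling noise.

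Members given with a value in every library were those that passed the test, and in each role the member with the largest absolute fold change and the one with the highest Pulsed TPM. Of other lists, genes that passed and the largest difference in each direction are named. The 44 members, the lists and the tests were chosen with earlier results of these data known.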

Additional observations from a re-analysis of the deposited data

Results flagged for a closer look

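Of 37 groups of 4 values examined (16 members, Mettl3 and the summed level in each group, and the 4 pair medians), 3 held a value far from the other 3 by Dixon's test, where chance gives about 1.85. Pulsed library 4 stood at 23.94 CPM of Cdc6, against 8.33 to 9.47 CPM in the other Pulsed libraries, and its Mettl3-RNP partner was also the highest of its group. Mettl3-RNP library 1 stood at 6.244 CPM of Tk1, against 27.9 to 31.6 CPM in the other Mettl3-RNP libraries, and its Pulsed partner was the lowest of its group at 6.02 CPM. Pulsed library 3 stood at 11.16 CPM of Mettl3, against 24.5 to 26.5 CPM in the other Pulsed libraries, and its partner had the lowest Mettl3 level of all, at 4.88 CPM.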

How the results depend on the processing

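Of the 16 members given with a value in every library, 14 kept the sign of their log2 fold change under the 11 alternatives run, all but Pola2 and Rrm1: Pola2 (-0.03) was 0.001013 with total counts alone and ran from -0.15 to 0.03531 when replicates were left out, and Rrm1 (0.01) ran from -0.11 to 0.12. Single replicates moved the small values of Mcm6 (-0.20 to -0.004), Gins4 (0.02 to 0.18), Lig1 (-0.14 to -0.03), Rpa3 (-0.24 to -0.06) and Slbp (-0.11 to -0.005) by over 1.5 times. Of the other 28 members, 5 (Gins2, Prim1, Pold1, Rrm2 and Tyms) turned sign under an alternative that kept all libraries and 14 when a replicate number was left out. Members higher at an adjusted p of 0.05 (0 of 44 in edgeR) were 3 by DESeq2, 1 by limma-voom, 2 with every gene of at least 1 count, 2 with at least 10 counts in every library and 0 to 2 when a replicate number was left out. Of these, 1 by DESeq2, 1 by limma-voom, 2 with every gene, 1 with at least 10 counts and 0 to 2 without a replicate were also past a fold of 1.5. The share of all tested genes called higher was 2.35% in edgeR, 5.94% by DESeq2 and 2.67% by limma-voom. It was 1.90% with every gene, 4.69% with at least 10 counts and 0.0738% to 1.65% without a replicate. No alternative called a member lower. Over all 14942 genes (351 higher, 208 lower) DESeq2 called 887 and 562. The filter on every gene called 638 and 355 of 33650, and the filter of 10 counts 587 and 372 of 12504. Leaving out a replicate called 11 to 246 and 15 to 147, of 14900 to 15496 genes. Without the replicate block 0 genes passed in either direction (579 at an unadjusted p under 0.05), with a Mettl3 log2 fold change of -1.307, 0 other replication genes and 0 checkpoint or E2F genes, and the count of members differing between replicate numbers could not be computed. Other replication genes numbered 2 by DESeq2 and 2 with every gene, against 1, and 0 to 1 without a replicate, and checkpoint and E2F genes 0 without any 1 replicate. Members differing between replicate numbers were 41 or 42 under other tools, scalings and filters and 28 to 42 without a replicate. Precision is limited by 4 pairs, with SEs of 0.06 to 0.22, and Orc1 and Gins1 had under 100 counts in their lowest libraries.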
